A study of Mus musculus with 6 samples.

Results

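The Frizzled receptor family has 10 genes in the mouse, Fzd1 to Fzd10. All 10 were taken by symbol from the 49315 genes counted in each library. They were followed in 6 lines of mouse embryo fibroblasts, which are connective tissue cells grown out from an embryo. All 6 lines were of the C57BL/6 strain, were labelled p53-null and were untreated at passage 4. In 3 lines (SG1, SG2 and SG3) both copies of Mdm4, the gene of the p53 inhibitor MDMX, carried a knock-in allele with the substitutions W201S and W202G, which breaks the contact of MDMX with the kinase CK1-alpha. The other 3 lines (WT3, WT9 and WT11) had wild-type MDMX and the same p53-null label. Every line was derived from its own embryo, which makes the embryo the replicate. The sources used here do not give embryo age or litter. Poly(A)-selected RNA was counted per gene, and the comparison asked which transcripts differ with the MDMX mutation in cells labelled p53-null.

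Frizzled proteins are membrane-spanning receptors whose outer cysteine-rich domain binds secreted Wnt proteins. With the co-receptors LRP5 and LRP6 they signal through Dishevelled and protect beta-catenin from the destruction complex, in which CK1-alpha is a kinase. With ROR, RYK and PTK7 they take part in routes that do not use beta-catenin, such as planar polarity. Their amount at the cell surface is limited by the ubiquitin ligases ZNRF3 and RNF43, and R-spondins with LGR proteins hold those ligases back. By sequence the family falls into the groups Fzd1, Fzd2 and Fzd7, then Fzd5 and Fzd8, Fzd3 and Fzd6, Fzd9 and Fzd10, and Fzd4.

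For the 3 genes whose levels did not overlap between the genotypes, Fzd1, Fzd7 and Fzd5, the 250 bases before the RefSeq transcript start (GRCm38.p6) are shown 5′ to 3′. Capitals mark matches on either strand to the GC box (GGGCGG), the TATA box (TATAAA), the CCAAT box (CCAAT) and a TCF/LEF motif (CTTTGAA or CTTTGAT), the last being the type of site that partners of beta-catenin bind. Matches to different motifs did not overlap each other in these windows.
Fzd1, minus strand, chr5:4758217-4758466: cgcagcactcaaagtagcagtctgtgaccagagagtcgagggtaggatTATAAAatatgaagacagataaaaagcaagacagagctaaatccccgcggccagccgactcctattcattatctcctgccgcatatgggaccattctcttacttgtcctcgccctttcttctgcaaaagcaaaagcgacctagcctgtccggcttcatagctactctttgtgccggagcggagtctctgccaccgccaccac
Fzd7, plus strand, chr1:59481897-59482146: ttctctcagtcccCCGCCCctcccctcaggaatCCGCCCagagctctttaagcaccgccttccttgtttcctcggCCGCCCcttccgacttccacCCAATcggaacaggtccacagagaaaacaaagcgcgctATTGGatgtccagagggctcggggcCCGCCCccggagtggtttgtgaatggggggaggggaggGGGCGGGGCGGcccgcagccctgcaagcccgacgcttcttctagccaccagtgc
Fzd5, minus strand, chr1:64737751-64738000: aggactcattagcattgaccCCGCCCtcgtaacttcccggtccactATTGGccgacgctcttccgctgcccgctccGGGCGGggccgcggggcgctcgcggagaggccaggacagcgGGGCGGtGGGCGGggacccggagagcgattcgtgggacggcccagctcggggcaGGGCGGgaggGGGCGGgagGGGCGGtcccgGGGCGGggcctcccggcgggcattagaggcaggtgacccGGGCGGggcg

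The Fzd1 window differed in make-up from the Fzd7 and Fzd5 windows. It held 1 match to the TATA box, which 12.4% of 32851 RefSeq windows of this length hold, and 0 GC boxes. The match lies towards the end of the window that is far from the RefSeq start. Matching took no account of position, so it does not show a working TATA box. The Fzd7 window held 6 GC boxes and 2 CCAAT boxes, and the Fzd5 window 9 and 1. A GC box was present in 32.7% of all windows and a CCAAT box in 33.8%. The TCF/LEF motif, found in 7.5% of all windows, was matched in 0 of the 3, which says only that these letters are not in these windows. G and C made up 51.2% of the Fzd1 window, 65.2% of the Fzd7 window and 76.4% of the Fzd5 window, beside a median of 52.4% over all windows. CpG pairs numbered 12, 17 and 32 in that order, beside a median of 6. The RefSeq starts of Fzd1 and Fzd7 lie 181 and 277 bases before the gene starts in the deposited files, so those windows stand ahead of the counted exons.

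The 10 genes lie on 7 chromosomes (GRCm38, positions as deposited, counted from 1). Fzd1 (ENSMUSG00000044674) lies at chr5:4753839-4758035, Fzd2 (ENSMUSG00000050288) at chr11:102604396-102608058 and Fzd7 (ENSMUSG00000041075) at chr1:59482424-59486955. Fzd5 (ENSMUSG00000045005) lies at chr1:64730558-64737751 and Fzd8 (ENSMUSG00000036904) on chromosome 18. Fzd3 (ENSMUSG00000007989) lies at chr14:65201026-65262463, Fzd6 (ENSMUSG00000022297) at chr15:39006280-39038186 and Fzd4 (ENSMUSG00000049791) at chr7:89404355-89413134. Fzd9 (ENSMUSG00000049551) lies at chr5:135248938-135251230 and Fzd10 (ENSMUSG00000081683) at chr5:128600844-128604093. Of the 10, 6 are genes of 1 exon (Fzd1, Fzd2, Fzd7, Fzd8, Fzd9 and Fzd10), so their counts do not tell spliced from unspliced RNA. The Fzd4 and Fzd5 models have 2 exons, Fzd6 has 7 and Fzd3 has 8. Only Fzd5 shares exon bases with another gene. The predicted gene Gm38058, on the opposite strand, covers 1233 of its bases (17.8% of the exonic length) and had 44 counts in all 6 libraries together, and the strand setting of the counting was not given in the sources used here.

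Library totals ran from 49317925 to 65457242 counts, with mitochondrial transcripts at 1.005% to 1.092%. Fibroblast markers were abundant in every line, their sum lying between 22126 and 25790 CPM (the usual per-library unit, here scaled by the TMM-adjusted library size). Mdm4 was at 60 ± 3.36 CPM (SD, n = 3) in SG lines and at 60.4 ± 2.32 CPM in WT lines. Its mutated codons cannot be seen in counts per gene. Trp53, the gene of p53, had reads in every line, at 70.9, 71.4 and 72 CPM in SG1, SG2 and SG3 and at 69.4, 69.2 and 73.1 CPM in WT3, WT9 and WT11 (log2 fold change 0.02, adjusted p = 0.867). The sources used here do not give the part of Trp53 that the null allele removes, and a count over the whole gene cannot place its reads in exons, so these values do not check the p53-null label. SG1 and WT9 held Xist at 399 and 343 CPM, against 0.565 to 0.7 CPM in the other 4 lines, and each of 4 Y-linked transcripts at 0.163 CPM or less. In these bulk libraries, fewer cells of a type and less RNA per cell cannot be told apart.

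Of the 10 genes, 9 had enough reads to be tested and Fzd10 did not. By edgeR's quasi-likelihood test, 0 of the 9 passed an adjusted p of 0.05 over all genes, where 306 of 16068 tested genes (1.9%) did, 0.809% higher and 1.1% lower in SG. Unadjusted p lay under 0.05 for 3 of the 9, Fzd5, Fzd7 and Fzd1, against 15.5% of all tested genes. The CPM of the genotypes did not overlap for the same 3, against 21.2% of all tested genes. Fzd1 and Fzd7 had every SG line above every WT line (10% of all tested genes did) and Fzd5 every SG line below (11.2%). DESeq2 called all 3 (5.99% of all genes) and limma-voom called 0 (2.03% of all genes). Of the 9 fold changes, 5 lay above 0 and 4 below, with a median log2 fold change of 0.06, beside 0.002 over all tested genes.

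**Figure D1:**
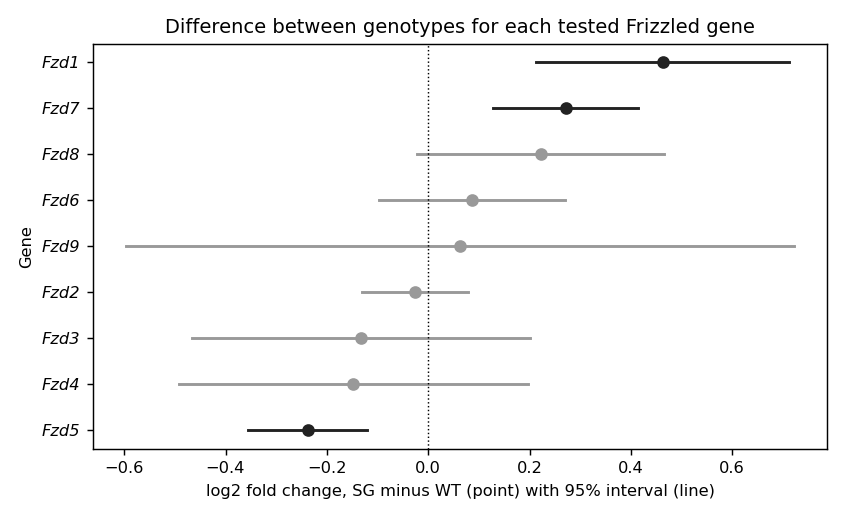
Log2 fold change (SG minus WT, x axis) of each of the 9 tested Frizzled genes (y axis), as a point with its 95% interval from edgeR. Black marks Fzd1, Fzd7 and Fzd5, the genes whose CPM did not overlap between genotypes, and grey the other 6, whose intervals all include 0.

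Fzd1 encodes a receptor that signals through beta-catenin with many Wnt proteins, and it had the largest fold change among the members. Its CPM were 52.9 in SG1, 58.9 in SG2 and 69.1 in SG3, against 40.9 in WT3, 49.2 in WT9 and 41.1 in WT11. The lowest SG line, SG1, lay just above the highest WT line, WT9, and SG3 stood highest of all. The means were 60.3 ± 8.22 CPM in SG and 43.7 ± 4.73 CPM in WT (SD, n = 3 each). This is a log2 fold change of 0.46 (SE 0.11, 95% interval 0.21 to 0.71), or 1.38-fold, with an adjusted p of 0.0799. SG1 and WT9 are the lines with Xist. Without both, the log2 fold change was 0.64 with an adjusted p of 0.0081. Without SG1 alone it was 0.55 (adjusted p = 0.0336), and without WT9 alone 0.56 (adjusted p = 0.0449). Leaving out any other line raised the adjusted p. It was 0.231 without SG2 (log2 fold change 0.48), 0.122 without SG3 (0.35), 0.25 without WT3 (0.42) and 0.255 without WT11 (0.42). Of all genes, 3.53% were called without SG1, 2.82% without WT9 and 4.36% without both. The share was 0.0184% without SG2, 1.35% without SG3, 0.146% without WT3 and 0.177% without WT11, beside 1.9% with all lines.

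Fzd7, a close relative of Fzd1 known for its part in stem cells and in gastrulation movements, showed the same order of genotypes. Its CPM were 133 in SG1, 143 in SG2 and 134 in SG3, against 109 in WT3, 124 in WT9 and 107 in WT11. WT9 was again the highest WT line, and the SG lines lay within a narrow range above it. The means were 137 ± 5.87 CPM in SG and 113 ± 8.97 CPM in WT. They differed by 0.27 on the log2 scale (SE 0.06, 95% interval 0.13 to 0.41), 1.21-fold, with an adjusted p of 0.076. It passed without WT9 (0.34, adjusted p = 0.0231) and without SG1 and WT9 together (0.36, adjusted p = 0.0166). The adjusted p was higher than with all lines when any other line was left out, at 0.0814 for SG1, 0.256 for SG2, 0.112 for SG3, 0.243 for WT3 and 0.223 for WT11. The log2 fold changes in these fits were 0.29, 0.24, 0.29, 0.25 and 0.23 in that order. The shares of all genes called were 3.53%, 0.0184%, 1.35%, 0.146% and 0.177%.

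Fzd2 completes that group and was the most evenly expressed member. Its CPM were 151 in SG1, 147 in SG2 and 158 in SG3, against 161 in WT3, 148 in WT9 and 154 in WT11. The genotypes overlapped throughout, and the coefficient of variation over the 6 lines was 3.65%. The log2 fold change was -0.03 (SE 0.05, adjusted p = 0.842), with a 95% interval from -0.13 to 0.08. Relative to Fzd2 in the same line, a measure into which no library scaling enters, the level per length of Fzd1 was 0.306 to 0.382 in SG and 0.221 to 0.29 in WT lines. The same ratio for Fzd7 was 0.685 to 0.788 in SG and 0.548 to 0.674 in WT lines. Both ratios kept the genotypes apart, by a small gap between the lowest SG and the highest WT line. The CPM of Fzd1 and Fzd7 already did not overlap and Fzd2 varied little, so these ratios are no further support.

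Fzd5, which binds several Wnt proteins and acts in eye, gut and placenta, had the opposite order. Its CPM were 25.5 in SG1, 26.7 in SG2 and 27.5 in SG3, against 32.6 in WT3, 31.6 in WT9 and 29.8 in WT11. Every SG line lay below every WT line, with little spread inside either genotype. The means were 26.6 ± 0.979 CPM in SG and 31.3 ± 1.42 CPM in WT. On the log2 scale the difference was -0.24 (SE 0.05, 95% interval -0.36 to -0.12), 1.18-fold lower in SG, with an adjusted p of 0.061, the smallest in the family. No fit with a line left out brought Fzd5 past the threshold (adjusted p between 0.0763 and 0.219), nor did leaving out SG1 and WT9 together (0.215). With 1 line left out its log2 fold change lay between -0.27 and -0.21, in fits that called 0.0184% to 3.53% of all genes.

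Fzd8, the closest relative of Fzd5, did not share that order. Its CPM were 13.3 in SG1, 15.2 in SG2 and 17.9 in SG3, against 13 in WT3, 13.4 in WT9 and 13.3 in WT11. The WT lines were nearly equal, SG1 lay among them, and SG2 and SG3 stood higher. For Fzd8 the log2 fold change was 0.22 (SE 0.11, 95% interval -0.02 to 0.47, adjusted p = 0.375). Per length, Fzd8 stood above Fzd5 in all 3 SG lines (ratio 1.07, 1.17 and 1.35) and below it in all 3 WT lines (0.823, 0.878 and 0.922). Their sum was nearly the same in both genotypes, at 8.46 ± 0.836 RPKM (CPM per kilobase of exon) in SG and 8.49 ± 0.174 RPKM in WT.

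**Figure D2:**
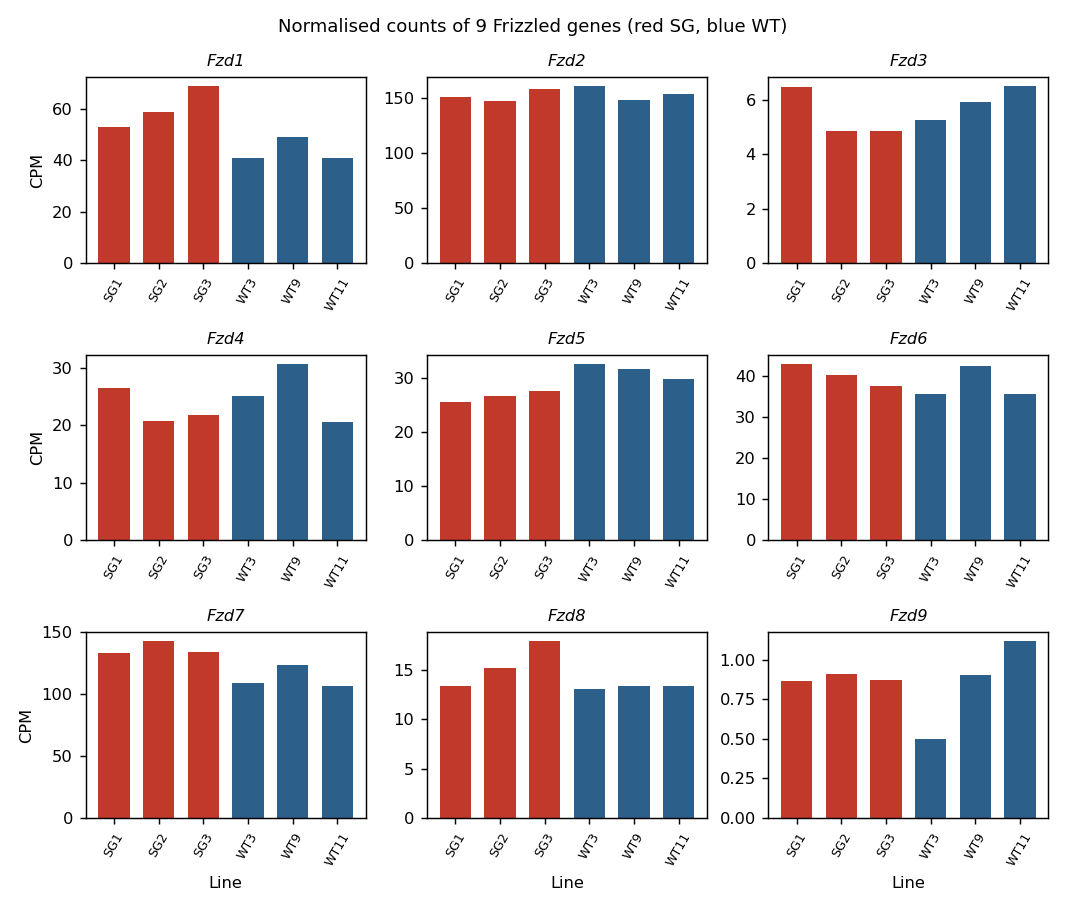
Normalised counts (CPM, y axis from 0) of 9 Frizzled genes in each line (x axis), SG lines in red and WT lines in blue, without Fzd10, which had at most 3 reads in a library. For Fzd1 and Fzd7 all red bars stand above the blue ones, for Fzd5 all stand below, and in the other panels red and blue overlap.

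Fzd6 and Fzd3, which act in planar polarity, hair patterning and axon guidance, did not separate the genotypes. The CPM of Fzd6 were 43 in SG1, 40.1 in SG2 and 37.6 in SG3, against 35.6 in WT3, 42.4 in WT9 and 35.7 in WT11. For Fzd6 the log2 fold change was 0.09 (SE 0.08, 95% interval -0.10 to 0.27, adjusted p = 0.667). The CPM of Fzd3 were 6.47 in SG1, 4.86 in SG2 and 4.84 in SG3, against 5.26 in WT3, 5.93 in WT9 and 6.51 in WT11. Its highest SG line, SG1, was close to its highest WT line, WT11, and the log2 fold change was -0.13 (SE 0.14, 95% interval -0.47 to 0.20, adjusted p = 0.718).

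Fzd4, the receptor of Norrin in retinal vessels, spread more between lines of 1 genotype than most members. Its CPM were 26.4 in SG1, 20.7 in SG2 and 21.8 in SG3, against 25 in WT3, 30.7 in WT9 and 20.6 in WT11. The lines with Xist, SG1 and WT9, were the highest of their genotypes, as they were for Fzd6, and no test of that pattern was made. The log2 fold change was -0.15 (SE 0.15, 95% interval -0.49 to 0.20, adjusted p = 0.693), and without WT9 it was 0.01. The biological coefficient of variation that edgeR estimated within genotypes was 0.135 for Fzd4, beside 0.0874 for genes of its abundance. It also lay above that trend for Fzd1 (0.101 beside 0.0724), Fzd6 (0.0793 beside 0.0749) and Fzd9 (0.2195 beside 0.2135). It lay below the trend for Fzd2 (0.0578 beside 0.076), Fzd5 (0.0602 beside 0.0815) and Fzd7 (0.0693 beside 0.0775). The same held for Fzd3 (0.1352 beside 0.1425) and Fzd8 (0.1046 beside 0.1078).

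Fzd9 and Fzd10 had few reads. Fzd9, a receptor of brain and bone, had 48 counts in SG1, 58 in SG2 and 51 in SG3, against 25 in WT3, 59 in WT9 and 67 in WT11. WT3 was low and WT11 high, so the WT lines spanned the SG lines, and the log2 fold change was 0.06 with a wide 95% interval from -0.60 to 0.72 (SE 0.28, adjusted p = 0.944). Its sign turned without WT3 (-0.19). Fzd10 had 2 counts in SG1, 1 in SG2 and 0 in SG3, against 1 in WT3, 0 in WT9 and 3 in WT11. No fold can be given for it at this depth.

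Per length, the family was led by the Fzd1, Fzd2 and Fzd7 group. Levels in RPKM were computed from CPM and the exonic length in the files, and given as mean ± SD over all 6 lines. Fzd2 was at 41.8 ± 1.53, Fzd7 at 27.6 ± 3.2, Fzd1 at 12.4 ± 2.59 and Fzd6 at 9.45 ± 0.786 RPKM. Fzd8 followed at 4.29 ± 0.571, Fzd5 at 4.19 ± 0.41 and Fzd4 at 3.6 ± 0.589 RPKM. Fzd3 stood at 1.34 ± 0.181 and Fzd9 at 0.376 ± 0.0871 RPKM, and Fzd10 reached at most 0.0154 RPKM. Neighbours in this order were apart in every line except within the trio Fzd8, Fzd5 and Fzd4, whose ranges overlapped. The ranges of Fzd1 (9.75 to 16.5 RPKM) and Fzd6 (8.6 to 10.4 RPKM) overlapped too, although Fzd1 exceeded Fzd6 within each of the 6 lines. For comparison, Smo, the Hedgehog transducer of the same receptor class, was at 20.7 RPKM, and SG and WT lines differed there by -0.09 on the log2 scale (adjusted p = 0.517, SE 0.06).

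**Figure D3:**
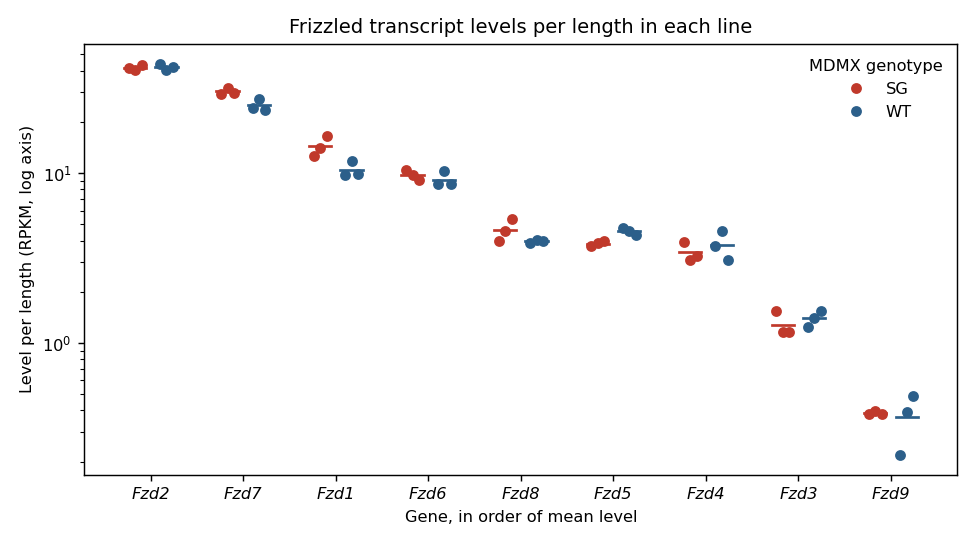
Level per length (RPKM, log axis) of 9 Frizzled genes (x axis, in order of mean level) in each SG line (red) and WT line (blue), with the genotype mean as a bar. The order runs from Fzd2 at 41.8 RPKM to Fzd9 at 0.376 RPKM, and Fzd10, listed at 0 in SG3 and WT9, is not drawn.

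As shares of the summed level per length, Fzd1, Fzd2 and Fzd7 together made up between 75.9% and 79.3% of the family in each line. Their sum was 83.1 RPKM in SG1, 85.9 in SG2 and 89 in SG3, against 78 in WT3, 79.4 in WT9 and 75.5 in WT11, without overlap. It holds Fzd1 and Fzd7, which already did not overlap, and Fzd2, which varied little, so it is no further support. The share of Fzd1 was 13.1% ± 1.46 in SG and 10.3% ± 0.785 in WT. That of Fzd7 was 27.6% ± 1.45 and 24.8% ± 1.12, that of Fzd2 38% ± 0.814 and 41.9% ± 2.85, and that of Fzd5 3.52% ± 0.0565 and 4.5% ± 0.182 (SD, n = 3). The Fzd1 to Fzd5 ratio per length was 3.41 to 4.15 in SG and 2.07 to 2.57 in WT lines, and the Fzd7 to Fzd5 ratio 7.42 to 8.2 and 5.12 to 5.97. These ratios, like those to Fzd2 and that of Fzd8 to Fzd5, were chosen after the values were seen and were not tested. The sum over all 10 genes was 107, 109 and 112 RPKM in the SG lines and 100, 105 and 97.6 RPKM in WT3, WT9 and WT11.

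**Figure D4:**
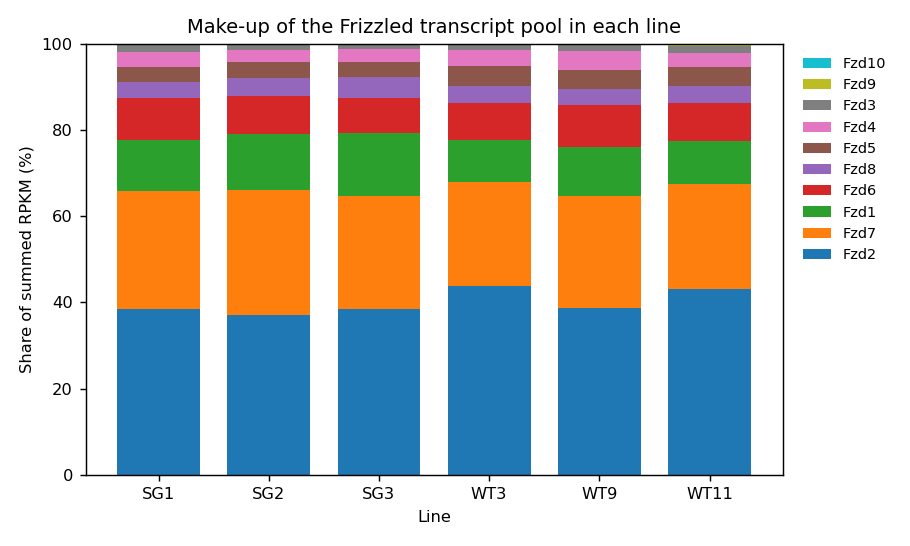
Share of each Frizzled gene (colours) in the summed level per length of the family (y axis, percent) in each line (x axis). Fzd2 takes the most in all 6 lines, at 37% to 43.9%, and the bottom 3 segments (Fzd2, Fzd7 and Fzd1) add up to 75.9% to 79.3%.

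Across the 6 lines, Fzd1 ran with both Fzd7 and Fzd8 (Pearson's r of log2 CPM 0.88 each), and Fzd5 against Fzd7 (-0.77) and Fzd1 (-0.68). The most opposed pair was Fzd2 with Fzd6 (-0.79), and Fzd3 ran against Fzd8 (-0.71), although none of those 4 genes separated the genotypes. These are descriptions over 6 points that share the genotype difference. By the same measure, over 11011 other genes, the genes most like Fzd1 were Ndufa7 (r = 0.998), of respiratory complex I, and Svip (0.997). Most like Fzd7 were Efnb2 (0.998), which encodes the ligand ephrin-B2, and Tll1 (0.997), a matrix protease gene. Efnb2 passed the threshold upward in SG (log2 fold change 0.47, adjusted p = 0.0466), as did Tll1 (0.71, adjusted p = 0.0422). Ndufa7 (0.15, adjusted p = 0.149) and Svip (0.50, adjusted p = 0.145) did not pass. All were picked for following members whose genotypes did not overlap, so their calls are no further support. Most like Fzd5 were Enpp3 (0.985) and P4ha3 (0.984), neither past the threshold. With so few lines many genes follow any pattern closely: r exceeded 0.95 for 116 genes with Fzd1, 143 with Fzd7 and 23 with Fzd5.

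Around the receptors, 11 lists of 90 Wnt pathway genes gave 71 tested genes, of which 0 were called higher and 3 lower, beside 1.9% of all genes. Their median log2 fold change was 0.01. The calls depended on single lines, with 7 genes called without SG1, 5 without WT9, 1 without SG3 and 0 without SG2, WT3 or WT11, each of them lower in SG. Of all genes, 3.53% were called when SG1 was left out, 0.0184% for SG2, 1.35% for SG3, 0.146% for WT3, 2.82% for WT9 and 0.177% for WT11. DESeq2 called 3 higher and 10 lower, 18.8% of the list genes beside 5.99% of all genes. Without the lines with Xist, 9 of 70 were called, all lower (12.9%, beside 4.36% of all genes). With all lines, unadjusted p lay under 0.05 for 25 of the 71 (15.5% of all tested genes). The genotypes did not overlap for 27 of the 71 (21.2% of all tested genes).

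Among 7 co-receptors, 6 were tested and 2 passed, both lower in SG. Unadjusted p lay under 0.05 for 4 of the 6 (15.5% of all tested genes). DESeq2 called 2 (5.99% of all genes). Ror2, a receptor tyrosine kinase that binds Wnt5a with Frizzled, was at 33.4 CPM in SG1, 31 in SG2 and 33.6 in SG3, against 39.3 in WT3, 40.5 in WT9 and 40.5 in WT11 (adjusted p = 0.0241 at a log2 fold change of -0.30 ± 0.04 SE). Ptk7, a pseudokinase of planar polarity, was at 263 CPM in SG1, 217 in SG2 and 215 in SG3, against 313 in WT3, 303 in WT9 and 347 in WT11 (adjusted p = 0.0437 at a log2 fold change of -0.47 ± 0.09 SE). Both calls were lost without SG2, WT3 or WT11, that of Ptk7 also without SG3 (adjusted p up to 0.107 for Ror2 and 0.187 for Ptk7). With a robust prior and all lines the call of Ptk7 was lost too, and that of Ror2 was lost without the lines with Xist, SG1 and WT9. Of the co-receptors of the beta-catenin branch, Lrp6 differed by 0.13 on the log2 scale (adjusted p = 0.25, SE 0.05) and Lrp5 by -0.08 (SE 0.04, adjusted p = 0.465).

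Of 19 Wnt ligand genes, 12 were tested and 0 passed. Unadjusted p lay under 0.05 for 5 of the 12 (15.5% of all tested genes). DESeq2 called 3 (5.99% of all genes). Wnt7a came nearest at a very low level, 0.171 ± 0.101 CPM in SG and 0.635 ± 0.049 CPM in WT (adjusted p = 0.0545 at a log2 fold change of -1.86 ± 0.38 SE). Wnt5a, named here because its 12.2 RPKM was the highest mean level among the ligands, had a log2 fold change of 0.09 (adjusted p = 0.496). Of the genes of Wnt secretion, Wls, the carrier of Wnt proteins, was at 365 ± 10.8 and 345 ± 21.1 CPM (adjusted p = 0.493).

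The genes that control Frizzled turnover did not pass either, 0 of 8 tested. Unadjusted p lay under 0.05 for 1 of the 8 (15.5% of all tested genes). DESeq2 called 0 (5.99% of all genes). Znrf3 averaged 16.5 ± 1.05 CPM over the SG lines and 15.3 ± 0.865 over the WT lines (adjusted p = 0.549 at a log2 fold change of 0.11 ± 0.07 SE). Rnf43 was at 1.56 ± 0.0889 and 1.2 ± 0.362 CPM (adjusted p = 0.504 at a log2 fold change of 0.38 ± 0.23 SE). Lgr5, a receptor of R-spondins, was at 1.09 ± 0.482 and 2.04 ± 0.661 CPM (adjusted p = 0.294). In a separate list of Norrin, Tspan12 and Wnt7 co-receptors, 0 of 4 tested genes passed. Unadjusted p lay under 0.05 for 2 of the 4 (15.5% of all tested genes), and DESeq2 called 1 (5.99% of all genes). Tspan12, which helps Fzd4 respond to Norrin, differed by 0.57 on the log2 scale (adjusted p = 0.151, SE 0.17). In the list of Frizzled maturation 0 of 2 tested genes passed and DESeq2 called 0. Mesd, the folding chaperone of LRP5 and LRP6, differed there by 0.12 (adjusted p = 0.441).

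Of 16 secreted or membrane antagonists, 9 were tested and 0 passed. Unadjusted p lay under 0.05 for 5 of the 9 (15.5% of all tested genes). DESeq2 called 1 (5.99% of all genes). Sfrp1, which has a Frizzled-like cysteine-rich domain and binds Wnt proteins outside the cell, was at 23.8 CPM in SG1, 20.1 in SG2 and 26.1 in SG3, against 16.4 in WT3, 17.9 in WT9 and 13.1 in WT11. All SG lines stood above all WT lines (adjusted p = 0.0788 at a log2 fold change of 0.56 ± 0.13 SE). Inside the cell, 0 of 5 Dishevelled and DAAM genes, 0 of 8 tested planar polarity genes and 0 of 9 genes of the beta-catenin core passed, with 1, 2 and 1 at an unadjusted p under 0.05 and 1, 1 and 0 called by DESeq2. Daam2, Vangl1 and Axin1 came nearest in them, with log2 fold changes of -0.36, -0.14 and -0.08 and adjusted p of 0.071, 0.159 and 0.294. Among 6 tested feedback targets of the pathway, Apcdd1 passed (adjusted p = 0.0322 at a log2 fold change of -1.08 ± 0.18 SE), and Axin2 differed by -0.83 on the log2 scale (adjusted p = 0.0555, SE 0.17). Of these 6, 4 were at an unadjusted p under 0.05 (15.5% of all tested genes were), DESeq2 called 4 (5.99% of all genes), and 4 had every SG line below every WT line (11.2% of all tested genes), with a median log2 fold change of -0.72 over the 6. The call of Apcdd1 was lost without SG2, SG3, WT3 or WT11 and, with all lines, under a robust prior (adjusted p up to 0.129).

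Markers of other cell types were low beside the fibroblast markers. Skeletal muscle markers summed to 17.6 to 26.3 CPM in SG and 8.04 to 16.2 CPM in WT, with 3 of 5 (Myod1, Myog and Actc1) under 1 CPM in every line. Neural and glial markers summed to 46.6 to 52.4 and 52.6 to 53.3 CPM, with 2 of 6 (Sox10 and Gfap) under 1 CPM in every line. Those sums, like the fibroblast sum (23170 to 25790 and 22126 to 22864 CPM), kept the genotypes apart, and their part in the order of Fzd1, Fzd7 and Fzd5 was not tested. The fibroblast sum does not stand for its members: 7 of the 10 markers had a log2 fold change below 0 (median -0.15), Thy1 was called lower in SG (-0.72, adjusted p = 0.00802), and Fn1, at 8884 against 6723 CPM, was called higher (0.40, adjusted p = 0.0308). Epithelial (18.9 to 46.8 and 12.4 to 26 CPM), endothelial (52.7 to 72.4 and 39.2 to 54.1 CPM) and blood cell markers (25.5 to 58.3 and 11.4 to 31.2 CPM) overlapped. Epcam and Cdh1 of the 7 epithelial markers, and Pecam1, Cdh5, Tek and Cldn5 of the 6 endothelial markers, were under 1 CPM in every line. Of the 6 blood cell markers 0 were. Other members of these lists were well above that level. Des led the muscle list, with means of 20.4 CPM in SG and 11.2 CPM in WT. Kdr led the endothelial list (59.4 and 45.3 CPM) and Tubb3 the neural and glial list (39.2 and 43.8 CPM). Each of these 3 genes made up most of the sum of its list in every line. Krt18 led the epithelial list (19.5 and 12.6 CPM).

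The plot with lines left out shows the fold changes of the 3 separated receptors and the fits in which they passed. The adjusted p also depends on the other genes in each fit. Of all genes, 0.0184% were called without SG2, 0.146% without WT3 and 0.177% without WT11, so a lost call there is not particular to these receptors. Fzd1 passed the threshold in 5 of 13 alternatives, with log2 fold changes from 0.35 to 0.64. Fzd7 passed in 4 of 13, from 0.23 to 0.36, and Fzd5 in 2 of 13, from -0.27 to -0.21. With DESeq2 the adjusted p were 0.00055, 0.00286 and 0.0164 for Fzd1, Fzd7 and Fzd5, where 5.99% of all genes were called. With no count filter they were 0.00292, 0.0102 and 0.0335, where 3.33% were. Without SG1 and WT9 together 4.36% of all genes were called, and 1.89%, 1.79% and 1.46% with RLE factors, total counts only and a robust prior, in the last 3 of which 0 Frizzled genes passed. Genes whose genotypes do not overlap keep their sign when a line is left out, so the steady signs add nothing.

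**Figure D5:**
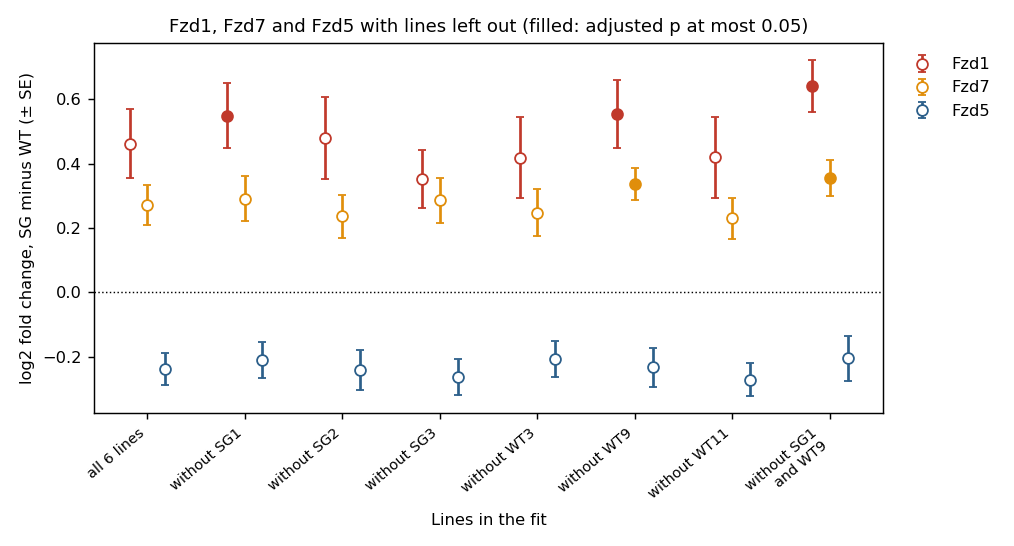
Log2 fold change (SG minus WT, y axis, with its SE) of Fzd1, Fzd7 and Fzd5 with all 6 lines and with lines left out (x axis), filled where the adjusted p was at most 0.05. Fzd1 is filled without SG1, without WT9 and without both, Fzd7 without WT9 and without both, and Fzd5 in none.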

How the data were processed

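Counts of reads per gene were deposited by the authors for 6 libraries of poly(A)-selected RNA. The tools named, per the submitters' processing notes, were Trimmomatic 0.36 for trimming, STAR 2.5.2b (build GRCm38) and featureCounts of Subread 1.5.2. The sources used here do not give the annotation release, the strand setting or how multimapping reads were treated. Groups came from the sample titles. Symbols came from GENCODE M21 (49056 of 49315 identifiers had one), and promoter windows from RefSeq tables (6 of the 10 genes matched).

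Genes were filtered with filterByExpr (16068 left), scaled by TMM and compared between genotypes with a 2-sided quasi-likelihood test in edgeR 4.0.16 in R 4.3.3, with no covariate. Adjusted p is the Benjamini-Hochberg value over all tested genes, with a threshold of 0.05. The SE of a fold change was derived from the F statistic. Log2 CPM for correlations used a prior count of 2. Beside the family and Smo, genes named were 7 set ones, up to 3 called members per list or else the member of smallest p, and for 3 members the 2 genes of highest correlation. Members and lists were chosen with earlier results of these data known. Fits were tested on simulated counts, where 67.2% of genes changed 1.5-fold were recovered, 92.5% at 2-fold and 100% at 4-fold. Of 188 calls there, 15 were false. The folds of Fzd1, Fzd7 and Fzd5 lie under the smallest simulated fold, so recovery at their size is not known. Alternatives used other scalings, no filter, a robust prior, DESeq2 1.42.0, limma-voom (limma 3.58.1), and fits with lines left out.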

Additional observations from a re-analysis of the deposited data

How the results depend on the processing

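The number of genes past the threshold was 306 with all lines, 959 without a count filter, 952 with DESeq2 and 703 without both lines that have Xist. With each line left out in turn it ranged from 3 to 579. The number of Frizzled genes past it was 0 with all lines, 3 without a count filter (Fzd1, Fzd5 and Fzd7), 3 with DESeq2, 2 without SG1 and WT9, and 0 to 2 with each line left out (1 without SG1, 2 without WT9). Of all genes, 3.53% were called without SG1 and 2.82% without WT9. Where 0 Frizzled genes passed, the share was 0.0184% without SG2, 1.35% without SG3, 0.146% without WT3 and 0.177% without WT11. The number of Frizzled genes past the threshold was also 0 with RLE factors, with total counts only, with limma-voom and with a robust prior. Signs turned for 3 members that did not pass in any fit: Fzd2 without WT3 (0.007, with a leave-out range of -0.056 to 0.007), Fzd4 without WT9 (0.011, range -0.278 to 0.011) and Fzd9 without WT3 (-0.187, range -0.187 to 0.315). The cause of these shifts was not tested. Plain library totals moved 0 of the 10 levels per length by more than their SD. No paired analysis was possible because the genotypes share only the line number 3. Depth limits Fzd10, with at most 3 reads in a library, and Fzd9, with 25 to 67.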
